A study of Mus musculus with 8 samples.

Results

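The genes described here were 10 genes of Muller glia and of their stress response in the retina: Gfap, Vim, Glul, Slc1a3, Aqp4, Kcnj10, Lcn2, Serpina3n, Edn2 and Fgf2. They were chosen by name and not by a measured value, and a probe was assigned to one of them when the accession in the array annotation matched that gene. The array held 56605 probes, of which those with a name stood for 22911 genes, and the 10 genes had 16 probes. Glul had 3 probes, Gfap, Aqp4, Lcn2 and Fgf2 had 2 each, and the other genes had 1 each. All 16 probes were well above background on all 8 arrays, so none was lost to the filter on dim probes.

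The study asked how the loss of multidrug resistance protein 4 (MRP4), an efflux transporter, affects gene expression in the ageing retina. RNA of whole retina was labelled with Cy3 and hybridized to Agilent mouse gene expression arrays, with 1 sample per array. There were 4 samples of homozygous Mrp4 knockout mice, bred on a C57BL/6J background and called Mrp4-null, and 4 of wild-type mice. All the mice were 46 to 55 weeks old by the labels, none received a treatment that the labels name, and the deletion was not restricted to a cell type by any source used here. The methods mention retinal tissue of 3 mice without saying whether a sample was a pool, and no label ties a sample to an animal, so p-values here measure the spread between these samples.

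The log2 signal of Abcc4, which encodes MRP4, was 10.75 ± 0.09 (SD, n = 4) under the Mrp4-null label and 6.83 ± 0.29 (SD, n = 4) under the wild-type label. The targeted gene thus went against its label, and directions below are those of the labels. It had 1 retained probe, whose position relative to the deleted part is not given in the sources used here. The 75th percentile of the signal was 497 to 774 on the arrays labelled Mrp4-null and 514 to 786 on the wild-type arrays. Xist was well above background on 4 arrays labelled Mrp4-null and 2 wild-type arrays, and Y-linked probes on 0 and 3. Wild-type array 1 had Xist and no Y-linked probe, like the null-labelled arrays, and wild-type array 2 had both. Sex-linked signal thus differed between the labels but also among the wild-type arrays. This signal largely went with the label, so it cannot be well told apart from the genotype. The genotypes lay in separate rows of 1 slide, so the row cannot be told apart from the genotype.

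Muller glia are the radial glia of the retina and span nearly its whole thickness. They take up glutamate and convert it to glutamine, and they move potassium and water toward vessels and the vitreous. When the retina is injured or inflamed they enter gliosis, in which GFAP filaments and secreted acute phase proteins rise and the homeostatic functions may be kept or lost. In the uninjured mouse retina GFAP is mainly a protein of astrocytes, and in a whole retina more cells of a type and more RNA per cell cannot be told apart.

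One array of the Mrp4-null label stood apart in these genes. On this array, called null-labelled array 3 below, 5 of the 10 genes were at least 2-fold above the highest of the other 7 arrays, namely Lcn2, Serpina3n, Edn2, Gfap and Fgf2. Of all 16093 genes measured, each by its probe with the highest mean, 133 (0.826%) were that far above on this array. On the other 7 arrays none of the 10 genes stood out in this way, and at most 0.0497% of all genes did. The array and the 2-fold limit were chosen after the values had been seen, so these counts are a description, and the difference between genotypes is given for each of the 10 genes with and without this array.

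The DNA just before the start of the genes that stood out is shown because these genes were high together. The stretches come from the RefSeq table of the GRCm38.p6 build, run 5′ to 3′ on the strand of the gene and end at the outermost start of the gene in RefSeq, which leaves 188 bases for Serpina3n and 74 for Fgf2. They are chr2:32387740-32387989 on the minus strand for Lcn2, chr12:104406458-104406645 on the plus strand for Serpina3n, chr4:120160956-120161205 on the plus strand for Edn2, chr11:102897201-102897450 on the minus strand for Gfap and chr3:37348403-37348476 on the plus strand for Fgf2. For contrast, chr15:8710808-8711057 on the minus strand is given for Slc1a3, a gene that was not high on null-labelled array 3, with a match to the STAT motif in capitals.
Lcn2: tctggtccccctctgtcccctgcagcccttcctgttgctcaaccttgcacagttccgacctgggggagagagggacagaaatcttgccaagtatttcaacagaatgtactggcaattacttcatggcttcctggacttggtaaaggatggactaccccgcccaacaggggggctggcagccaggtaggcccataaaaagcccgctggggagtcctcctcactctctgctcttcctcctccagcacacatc
Serpina3n: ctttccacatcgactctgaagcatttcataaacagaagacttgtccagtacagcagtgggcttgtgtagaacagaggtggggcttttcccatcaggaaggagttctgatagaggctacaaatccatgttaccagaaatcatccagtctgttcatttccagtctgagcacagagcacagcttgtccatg
Edn2: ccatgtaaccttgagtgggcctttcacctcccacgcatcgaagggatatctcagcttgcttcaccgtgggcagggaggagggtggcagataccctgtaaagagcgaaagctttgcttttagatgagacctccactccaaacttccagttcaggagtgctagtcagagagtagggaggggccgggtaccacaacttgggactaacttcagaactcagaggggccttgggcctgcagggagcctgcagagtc
Gfap: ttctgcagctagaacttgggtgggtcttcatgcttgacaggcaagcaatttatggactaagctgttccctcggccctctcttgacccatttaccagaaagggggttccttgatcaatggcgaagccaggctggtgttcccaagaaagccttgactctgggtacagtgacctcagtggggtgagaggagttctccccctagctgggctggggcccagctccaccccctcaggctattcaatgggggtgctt
Fgf2: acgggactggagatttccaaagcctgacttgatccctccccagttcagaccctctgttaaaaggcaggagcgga
Slc1a3: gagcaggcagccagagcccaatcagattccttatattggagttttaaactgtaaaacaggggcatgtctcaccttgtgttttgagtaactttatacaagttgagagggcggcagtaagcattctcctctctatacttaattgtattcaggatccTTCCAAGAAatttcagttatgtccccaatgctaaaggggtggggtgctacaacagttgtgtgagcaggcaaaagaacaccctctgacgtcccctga

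The table held a promoter, 250 bases before to 50 after the start, for 9 of the 10 genes, and motifs were searched in these whole windows on both strands. The STAT motif, spelled TTCNNNGAA, was found in Slc1a3, as TTCCAAGAA at positions -96 to -88, and in Gfap, as TTCCAGGAA at positions -2 to 7, counted from the first base after the start as 1 and with no position 0. It was found in 8.30% of all 32851 promoters in the table. The AP-1 motif TGANTCA and the SOX motif ATTGTT were found in none of the 9 promoters, against 7.81% and 10.7% of all promoters. A match describes letters in this window only.

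Lcn2 encodes lipocalin 2, a secreted acute phase protein that binds bacterial siderophores. The log2 signal of its brighter probe, A_55_P2070869, was 8.41, 8.26, 13.24 and 8.33 on null-labelled arrays 1 to 4 and 8.63, 8.57, 8.42 and 8.20 on wild-type arrays 1 to 4. Null-labelled array 3 was high, and the other 3 arrays of that label lay within the range of the wild-type arrays. Its excess over the highest of the other 7 arrays was 24.4-fold, rank 1 of the 16093 genes. Before normalization the signal of this probe was 10150 on that array and between 242 and 446 on the others. The second probe, A_51_P510156, showed the same array high, at 11.44 against 6.03 to 6.88 on the other 7 arrays. Between the genotypes, Mrp4-null minus wild-type, the log2 difference was 1.10 (95% interval -1.24 to 3.45, limma, adjusted p = 1.00) for the first probe and 1.01 (-1.44 to 3.46, adjusted p = 1.00) for the second. Without null-labelled array 3 these were -0.12 and -0.27, so the direction turned, and the groups overlapped in both probes.

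Serpina3n, a secreted serine protease inhibitor that marks reactive astrocytes, was at 5.24, 5.20, 9.47 and 5.30 on null-labelled arrays 1 to 4. On wild-type arrays 1 to 4 it was at 5.50, 5.09, 4.42 and 5.11. Again null-labelled array 3 alone was high, by 15.7-fold over the highest of the other 7 arrays (rank 2 of 16093 genes), while the remaining arrays of both labels overlapped. With the normexp background correction, which models each spot as signal plus background, this excess was 7.61-fold. The genotypes differed by 1.27 on the log2 scale (95% interval -0.79 to 3.33, limma, adjusted p = 1.00), and by 0.22 without that array.

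Edn2 and Fgf2 encode secreted ligands. Endothelin 2 is a peptide that stressed photoreceptors release and that acts on the receptor Ednrb of Muller glia. Edn2 was at 8.999, 8.76, 12.09 and 8.61 on null-labelled arrays 1 to 4 and at 8.90, 8.55, 7.94 and 7.86 on wild-type arrays 1 to 4. Null-labelled array 3 was 8.53-fold above the highest of the others (rank 10 of 16093 genes). The other 3 null-labelled arrays lay in the upper part of the wild-type range or just above it, and the groups overlapped through wild-type array 1. Its log2 difference was 1.30 (95% interval -0.35 to 2.95, limma, adjusted p = 0.930), and 0.48 without null-labelled array 3 (adjusted p = 1.00).

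Fibroblast growth factor 2, a survival factor for photoreceptors, had low signals. Probe A_51_P399845 of Fgf2 gave 5.33, 5.70, 6.86 and 5.70 on null-labelled arrays 1 to 4 and 5.74, 5.07, 5.43 and 5.27 on wild-type arrays 1 to 4. Probe A_52_P376768 gave 4.61, 5.87, 6.94 and 5.20 against 5.28, 5.25, 5.27 and 4.88. In both probes null-labelled array 3 was high and the other arrays overlapped. Its excess was 2.17-fold by the first probe (rank 112 of 16093 genes) and 2.10-fold by the second, and with the normexp background correction it was 1.54-fold and 1.62-fold. The log2 differences were 0.52 (95% interval -0.18 to 1.22, limma, adjusted p = 0.959) and 0.48 (-0.49 to 1.46, adjusted p = 1.00), and they were 0.20 and 0.06 without that array and 0.24 and 0.22 with normexp.

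Gfap and Vim encode the intermediate filament proteins of retinal glia. For Gfap, the filament whose rise is the usual sign of gliosis, probe A_52_P52303 was at 7.29, 7.56, 9.05 and 7.38 on null-labelled arrays 1 to 4 and at 7.63, 7.21, 7.26 and 7.07 on wild-type arrays 1 to 4. Probe A_55_P2157250 was at 6.85, 7.31, 8.30 and 7.03 against 7.29, 7.04, 6.72 and 6.60. Null-labelled array 3 was the high array in both, 2.69-fold over the highest of the others by the first probe and 2.00-fold by the second, and the remaining arrays overlapped between labels. Genotypes differed by 0.53 (95% interval -0.31 to 1.36, limma, adjusted p = 1.00) and 0.46 (-0.24 to 1.16, adjusted p = 1.00) on the log2 scale, and by 0.12 and 0.15 without that array.

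Vimentin is present in Muller glia at rest and its gene gave a far smaller excess on the same array. Vim was at 12.57, 12.02, 12.74 and 12.51 on null-labelled arrays 1 to 4 and at 12.09, 12.57, 12.19 and 12.47 on wild-type arrays 1 to 4. Null-labelled array 3 was the highest of the 8, by 1.12-fold, and null-labelled array 2 was the lowest. For Vim the log2 difference was 0.13 (95% interval -0.26 to 0.52, limma, adjusted p = 1.00), and the whole interval lay within 1.5-fold. Without null-labelled array 3 it was 0.036.

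**Figure D1:**
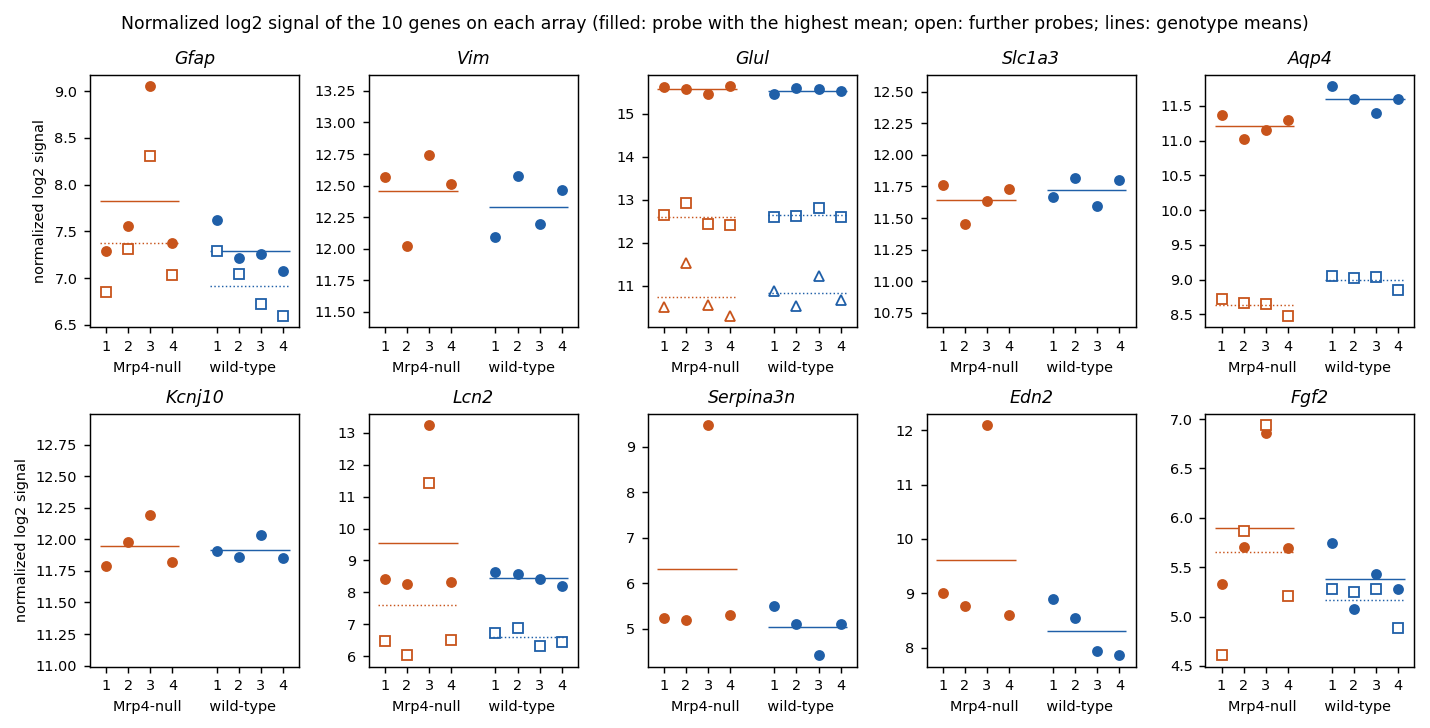
Normalized log2 signal of the 10 genes on each of the 8 arrays, 1 panel per gene with its own vertical axis, with filled symbols for the probe with the highest mean, open symbols for further probes, solid and dotted lines for the genotype means of these probes, and the arrays labelled Mrp4-null in orange and wild-type in blue. Null-labelled array 3 stands above the other arrays in Lcn2, Serpina3n, Edn2, Gfap and Fgf2, and the 4 null-labelled arrays lie below the 4 wild-type arrays in both probes of Aqp4.

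Glul and Slc1a3 carry the handling of glutamate. Glutamine synthetase, the product of Glul, converts glutamate and ammonia to glutamine and is made by glia in the retina. Its brightest probe, A_55_P2142146, was at 15.63, 15.58, 15.45 and 15.64 on null-labelled arrays 1 to 4 and at 15.45, 15.59, 15.57 and 15.53 on wild-type arrays 1 to 4. Null-labelled array 3 and wild-type array 1 were the lowest, and the 8 values spanned 0.19 on the log2 scale. By this probe the log2 difference was 0.04 (95% interval -0.14 to 0.22, limma, adjusted p = 1.00). The further probes A_66_P134479 and A_52_P143866 gave -0.05 (-0.33 to 0.24) and -0.10 (-0.72 to 0.52), each with overlapping groups and an adjusted p of 1.00. Without null-labelled array 3 the differences of the 3 probes were 0.081, 0.014 and -0.042, so the second changed sign.

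Slc1a3 encodes GLAST, the glutamate transporter of Muller glia. It was at 11.76, 11.45, 11.63 and 11.73 on null-labelled arrays 1 to 4 and at 11.67, 11.82, 11.59 and 11.80 on wild-type arrays 1 to 4. Null-labelled array 3 lay in the middle of this range. Its log2 difference was -0.07 (95% interval -0.29 to 0.15, limma, adjusted p = 1.00), and also -0.07 without null-labelled array 3.

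Kcnj10 and Aqp4 encode the potassium channel Kir4.1 and the water channel aquaporin 4, which sit together in Muller cell endfeet. Kcnj10 was at 11.79, 11.98, 12.19 and 11.82 on null-labelled arrays 1 to 4 and at 11.91, 11.86, 12.04 and 11.86 on wild-type arrays 1 to 4. Null-labelled array 3 was the highest, by 1.12-fold, and the groups overlapped. For Kcnj10 the log2 difference was 0.03 (95% interval -0.21 to 0.27, limma, adjusted p = 1.00). Without null-labelled array 3 it was -0.051, so the direction turned.

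Aqp4 was the only one of the 10 genes whose arrays did not overlap between the labels. Probe A_55_P2031939 was at 11.37, 11.02, 11.16 and 11.29 on null-labelled arrays 1 to 4 and at 11.79, 11.61, 11.40 and 11.60 on wild-type arrays 1 to 4. Probe A_52_P625527 was at 8.73, 8.67, 8.65 and 8.48 against 9.06, 9.02, 9.03 and 8.86. Every null-labelled array was below every wild-type array in both probes, and null-labelled array 3 lay within its own group. The lowest wild-type array exceeded the highest null-labelled one only narrowly, at 11.40 against 11.37 and 8.86 against 8.73. The log2 differences were -0.39 (standard error 0.11, 95% interval -0.64 to -0.13) and -0.36 (standard error 0.09, -0.56 to -0.16). Neither passed the test over all probes (limma, adjusted p = 0.362 and 0.202), and both were smaller than 1.5-fold. The 2 probes of Aqp4 were 2 of the 16 probes, while arrays did not overlap in 4.79% of all 37085 probes retained (2.36% lower on the arrays labelled Mrp4-null). With null-labelled array 3 left out the differences were -0.37 in both probes, and over all 8 arrays left out in turn they ranged from -0.45 to -0.32 and from -0.40 to -0.31. Wild-type array 1, on which no Y-linked probe was well above background, had the highest level of Aqp4 in both probes. This is the value of 1 array, and the part of sex in the difference of Aqp4 was not tested.

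None of the 10 genes was called changed, where a call needed both 1.5-fold or more and a limma p under 0.05 after adjustment over all probes. In the same fit 0.545% of all retained probes were called, and 1 of the 10 genes, Aqp4, had an unadjusted p under 0.05 by its probe with the highest mean, against 6.6% of all genes. The methods name the local pooled error (LPE) test with 1.5-fold and a p under 0.05, and mention no adjustment. With an unadjusted p Edn2 alone of the 10 genes passed, higher on the arrays labelled Mrp4-null (LPE, unadjusted p = 0.0057), as did 0.769% of all probes in that direction. It did not pass after adjustment over all probes (LPE, adjusted p = 0.476, the smallest of the 10 genes) or without null-labelled array 3 (LPE, unadjusted p = 0.054, log2 difference 0.48). By fold change alone 4 of the 16 probes passed, both of Lcn2 and those of Serpina3n and Edn2, all higher on the arrays labelled Mrp4-null, against 1.08% of all probes. None of these 4 passed when null-labelled array 3 was left out. For the 5 genes that stood out on that array the intervals were wide, and for Lcn2 the interval of the first probe ran from 0.424-fold to 10.9-fold. The SD of this probe over the null-labelled arrays was 2.45 with null-labelled array 3 and 0.08 without it. The number of arrays also limits the precision.

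**Figure D2:**
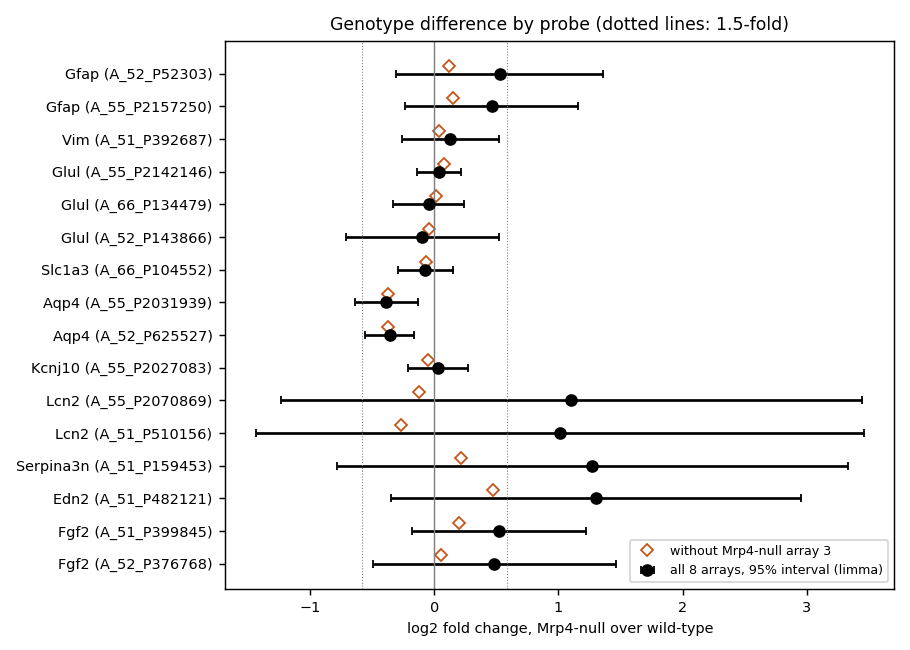
Log2 fold change of each probe of the 10 genes, arrays labelled Mrp4-null over wild-type, as points with 95% intervals from limma over all 8 arrays, with open diamonds for the same fit without null-labelled array 3 and dotted lines at 1.5-fold. The points of Lcn2, Serpina3n and Edn2 lie beyond 1.5-fold with intervals that reach across 0 and the diamonds lie inside it, while both intervals of Aqp4 lie below 0 and its diamonds lie near the points.

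The genes around these members were read from lists of their pathways. Without the members, 100 of 105 listed genes were measured and 1 was called, against 0.652% of all genes with any probe called. It was Spry2, a feedback inhibitor of FGF signalling, whose probe A_51_P445153 was at 7.20 ± 0.19 (SD, n = 4) on the null-labelled arrays against 5.30 ± 0.20 (SD, n = 4, difference 1.91, limma, adjusted p = 0.000371). The probes of Spry2 disagreed in size, with a difference of 0.23 by the brighter one (adjusted p = 0.648). The median log2 difference of these 100 genes was 0.01, beside -0.01 for all genes.

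Reactive glia genes followed the same array as Lcn2. Of 18 measured genes of this list other than the members, 14 were highest on null-labelled array 3, where 12.8% of all genes were, and 7 of the 18 were at least 2-fold above all other arrays. Timp1, an inhibitor of matrix metalloproteinases, was at 10.84 on that array and between 7.09 and 7.53 on the others. Bcl3, a nuclear partner of NF-kappaB, was at 10.42 against 6.31 to 7.27, and the chemokine gene Cxcl10 at 9.69 against 4.94 to 6.61. Cp, which encodes the ferroxidase ceruloplasmin, was at 13.25 against 10.97 to 11.58. The other genes with such an excess were Cebpd, a transcription factor of the acute phase, at 13.33 against 11.33 to 11.76, the metallothionein gene Mt2 at 15.23 against 13.65 to 13.97, and the protease inhibitor gene A2m at 7.76 against 5.12 to 6.57. Limma called no gene of this list between genotypes, and 3 of its 22 genes had an unadjusted p under 0.05. With the members, its median log2 difference was 0.45 over 22 genes and 0.12 without null-labelled array 3. In the limma fit over all 8 arrays Bcl3 had the largest difference upward among non-members, 1.31 (adjusted p = 0.926). Tnc, an extracellular matrix glycoprotein, had the largest downward, -0.28 (adjusted p = 1.00).

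Signalling through gp130 and STAT3 is a known route to Gfap expression in glia. Of its 14 measured genes, 8 were highest on null-labelled array 3. Socs3, the feedback inhibitor induced by STAT3, was at 11.14 there against 8.49 to 9.03 on the other arrays, and no other gene of the list was 2-fold above. None was called and 1 had an unadjusted p under 0.05. The largest differences between genotypes were 0.77 for Socs3 (limma, adjusted p = 0.994) and -0.19 for Il6st, the gene for gp130 itself (adjusted p = 1.00).

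No gene of the resting functions of Muller glia was 2-fold above the other arrays on that array. Of 22 Muller glia genes, among them Glul and Slc1a3, 4 were highest and 3 lowest on null-labelled array 3. Their mean log2 level was between 12.08 and 12.25 on the null-labelled arrays and between 12.11 and 12.24 on the wild-type arrays, and the median of their log2 differences was -0.00 (-0.02 without null-labelled array 3). None was called by limma, and 1 had an unadjusted p under 0.05. The largest differences were 0.37 for Id3, a transcriptional regulator whose arrays did not overlap, as in 2.44% of all probes in that direction (adjusted p = 0.164), and -0.24 for the receptor gene Gpr37 (adjusted p = 1.00). In glutamate and ammonia handling the mean log2 level was highest on that array, at 11.54 against 11.18 to 11.45 on the others. There 3 of 12 genes were highest, Slc7a11 by 1.83-fold and the glutamine transporter genes Slc38a5 by 1.38-fold and Slc38a3 by 1.03-fold. The largest difference between genotypes was that of Slc7a11, the cystine and glutamate exchanger, at 0.57 (limma, adjusted p = 0.707). In potassium and water handling, 2 of 13 genes were highest there. Aqp4 had the largest difference downward in that list, and Trpv4, a cation channel, the largest upward, 0.19 (adjusted p = 1.00).

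**Figure D3:**
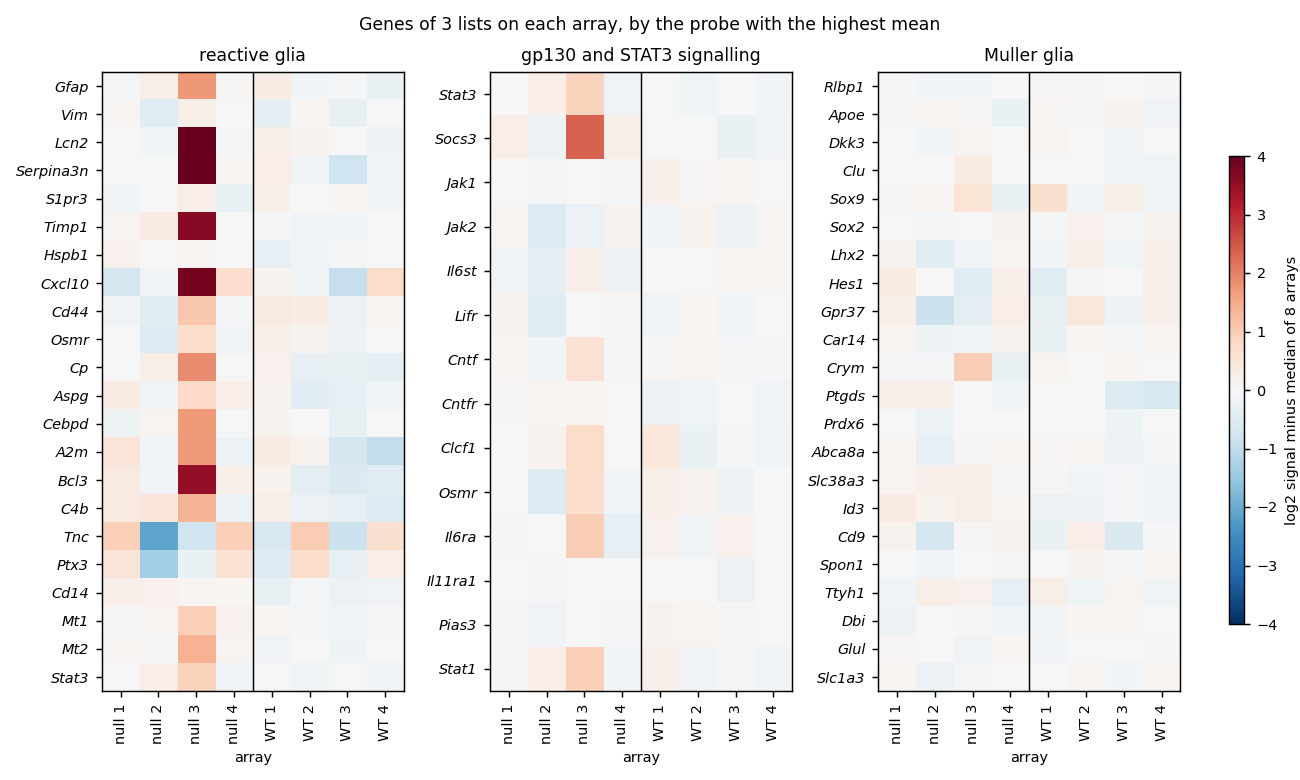
Log2 signal of each gene of 3 lists on each array, by its probe with the highest mean and minus the median of the 8 arrays, with colour clipped at 4 in either direction and a line between the labels. Red marks a value above that median. Null-labelled array 3 is the highest of the 8 arrays in 18 of 22 genes of reactive glia. It is so in 8 of 14 genes of gp130 and STAT3 signalling, and in 4 of 22 of Muller glia.

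None of the partners of the secreted members was 2-fold above the other arrays on null-labelled array 3. Of 6 endothelin genes Edn2 alone was highest on null-labelled array 3. Ednrb, the receptor on Muller glia, was at 6.73, 5.88, 6.26 and 6.95 on null-labelled arrays 1 to 4 and at 6.44, 7.55, 6.46 and 6.95 on wild-type arrays 1 to 4, a difference of -0.40 (limma, adjusted p = 1.00) with overlapping groups. Of 17 FGF signalling genes 2 were highest on that array, Fgf2 and Fgfr1, the latter by 1.13-fold, and 4 were lowest there, as were 11.3% of all genes. Apart from Fgf2, the largest differences between genotypes by the brightest probe were 0.29 for the transcription factor gene Etv4 (adjusted p = 0.914) and -0.25 for Fgf1 (adjusted p = 0.608). Among the partners of lipocalin 2, the receptor gene Slc22a17 was between 14.08 and 14.20 on all 8 arrays. Lrp2, the gene for the receptor megalin, was higher on every null-labelled array than on every wild-type array, by 0.58 on the log2 scale (adjusted p = 0.253). The same held for 2.44% of all probes. Mmp9, whose product lipocalin 2 binds, differed by -0.11 (adjusted p = 1.00).

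Among filament genes and their linkers, 3 of 8 were highest on null-labelled array 3, Gfap, Vim and Nes. Nestin, a filament of immature and reactive glia, was at 8.10 there and between 7.08 and 7.52 on the others. The largest difference downward was that of the keratin gene Krt8, -0.50 (limma, adjusted p = 0.688).

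Markers of other cells were read beside these values. Of 12 microglia genes 11 were highest on null-labelled array 3, and the mean log2 level of the list was 9.31 there and between 8.32 and 8.56 on the other arrays. Cd68, a lysosomal protein of phagocytes, was at 9.12 against 7.39 to 7.67, and C1qa and C1qc were also at least 2-fold above the other arrays. The part of microglia in the values of the 10 genes was not tested. Of 6 genes of retinal astrocytes, which make GFAP without injury, 1 was highest and 2 were lowest on that array, with means of 7.66 to 7.87 on the null-labelled and 7.76 to 7.90 on the wild-type arrays. Rod markers, at 16.29 to 16.36 and 16.30 to 16.42, were high on all 8 arrays, and none of 12 was 2-fold off on null-labelled array 3. Optic nerve oligodendrocyte markers were at 7.59 to 7.67 on the null-labelled and 7.70 to 7.79 on the wild-type arrays, with 4 of 6 genes lower under the null label and a median log2 difference of -0.07. Of 8 ganglion cell genes 7 were lower on average under that label, by a median of -0.15 on the log2 scale. None of them was called by limma, and their part in the values of Aqp4 was not tested. Cone markers were lower on null-labelled array 3, with 5 of 9 lowest on that array, as were 11.3% of all genes, and a mean of 13.32 against 13.48 to 13.55 on the others. None of the 9 was 2-fold below, and their part in these values was not tested. The lens list, at 6.51 to 8.69 against 7.62 to 9.82, varied between arrays of both labels and was at 7.79 on null-labelled array 3. Of its 15 genes 14 had a lower mean under the Mrp4-null label, with a median log2 difference of -1.38, and of -1.54 without null-labelled array 3. None of them was called by limma, 4 had an unadjusted p under 0.05, and the part of lens in these values was not tested.

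**Figure D4:**
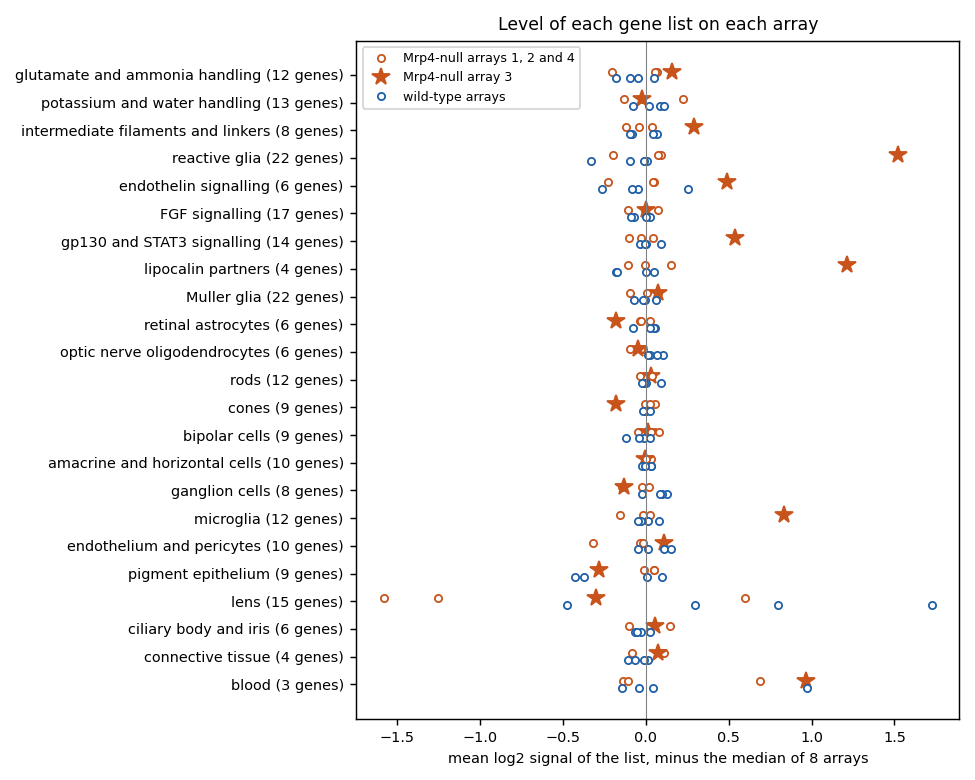
Mean log2 signal of each gene list on each array minus its median over the 8 arrays, with a star for null-labelled array 3, open orange circles for the other null-labelled arrays and open blue circles for the wild-type arrays. The star lies to the right of the other arrays for reactive glia, gp130 and STAT3 signalling, lipocalin partners, which hold Lcn2, endothelin signalling, which holds Edn2, filaments and linkers, which hold Gfap, glutamate and ammonia handling, and microglia, to their left for cones and retinal astrocytes, and among the other arrays for Muller glia and rods.

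The 10 genes were also compared with each other across arrays. Over the 8 arrays the 10 pairs among Gfap, Lcn2, Serpina3n, Edn2 and Fgf2 had Pearson r between 0.89 and 0.98 and Spearman rho between 0.40 and 0.95. Adjusted over all 45 pairs of the 10 genes, the smallest p was 0.051 by an exact two-sided permutation test, so 0 pairs passed, and 11 pairs had an unadjusted p under 0.05. Without null-labelled array 3 the same 10 pairs had r between -0.07 and 0.84 (smallest adjusted p = 0.420, exact permutation test). Without the 2 arrays farthest from the median r was between -0.33 and 0.79. Without null-labelled array 3 the 4 pairs with Lcn2 had r between -0.07 and 0.42. Gfap and Fgf2 still had r = 0.84 and rho = 0.93, and Serpina3n and Edn2 r = 0.71 and rho = 0.71. Over the 10 pairs rho was then between 0.11 and 0.93, and no pair passed by rho either. With each genotype centred on its own mean and that array included, 19 of the 45 pairs passed by r and 1 by rho.

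As a description over 8 arrays and 16087 genes, the genes most like each of the 5 members were listed by Pearson r of the brightest probes. They were Cp, Gvin1 and Ccl2 for Gfap, with r from 0.988 to 0.994. Nfkb2, Oas1a and Asf1b were closest to Lcn2, with r from 0.994 to 0.997. For Serpina3n they were Tnnt2, Gbp2 and Cebpd (0.989 to 0.992), for Edn2 Tlr2, Pcdhga9 and Tnnt2 (0.986 to 0.989), and for Fgf2 E2f6, Cp and Gfap (0.967 to 0.968). Each of these genes was highest on null-labelled array 3, from 1.21-fold over the other arrays for E2f6 to 10.9-fold for Ccl2. The choice by r with members high on that array made this likely beforehand. Without that array r was between 0.49 and 0.94.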

How the data were processed

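The authors deposited the scanner output of 8 one-color Agilent arrays, in which Feature Extraction 11.0.1.1 (submitters' processing notes) had given each spot a background-subtracted, detrended signal intensity, not normalized between arrays. Their table of values held the same intensity per probe, within 1% for 99.996% of the values. The genome build of the array design differs from GRCm38.p6, so no probe coordinates are given. Accessions matched the RefSeq gene table for 32994 of 56605 probes (58.3%).

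Control spots and 78 to 143 outlier spots per array were left out, no spot was saturated, and log2 intensities were averaged per probe. A probe was kept if all measured arrays of 1 genotype or both had it well above background, with 3 or more measured there and 2 or more in the other. The 37085 probes kept were normalized by the quantile method. Between 66.0% and 69.9% of probes per array were well above background. Genotypes were compared with limma 3.58.1 in R 4.3.3 (with data.table, version 1.17.8), with Benjamini-Hochberg adjustment over the 37085 probes. An own version of the LPE test that the methods name, with variances in bins of 0.01 of the values and a spline of 10 degrees of freedom, served as an alternative. Both were tested on simulated data. The probe with the highest mean stood for its gene in counts of genes. Pairs of genes were compared by exact two-sided permutation tests.

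The members, lists, motifs and rules were chosen with earlier results of these data known. Named are all members, Abcc4, of each pathway list the genes called and those with the largest difference each way, and the 3 genes most like each of 5 members. Other names, such as Timp1, Cd68 and Nes, were chosen after their values were seen. The alternatives were a 75th percentile shift, cyclic loess, normexp (offset 50), outlier spots kept, looser and stricter filters on dim probes, the deposited table, an intensity trend with robust variances, the LPE test, fold change or adjusted p alone, the replicate number as a block, and arrays left out. Other limits for the counts on null-labelled array 3, and the LPE test at an unadjusted p, were added after seeing the data.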

Additional observations from a re-analysis of the deposited data

Results flagged for a closer look

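Within the 4 arrays of a genotype, the gap between the highest or lowest array and its nearest neighbour was divided by the range of the group, and a share above Dixon's 95% critical value for 4 samples was noted. This was so in 7 of 32 groups of probe and genotype, in 6 genes, where chance gives about 1 in 20 for a single group. The groups share arrays and some share a gene, so the 7 are a description and cannot be set against that share. In 5 of the 7 the array was null-labelled array 3, high for Gfap (A_52_P52303, 0.848), for Lcn2 (A_55_P2070869, 0.969, and A_51_P510156, 0.914), for Serpina3n (0.977) and for Edn2 (0.887). The signals of these probes on that array were 9.05, 13.24, 11.44, 9.47 and 12.09 on the log2 scale. The other 2 were small in size on wild-type arrays: Glul was high on wild-type array 3 by its probe A_66_P134479 (0.865), at 12.80 against 12.58 to 12.61, and Fgf2 was low on wild-type array 4 by A_52_P376768 (0.943), at 4.88 against 5.25 to 5.28.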

How the results depend on the processing

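No member was called under any normalization, background correction, filter, test or left-out array that was tried with adjusted p-values. The LPE test at an unadjusted p, added after seeing the data, passed 1 member (Edn2), 5 pathway genes and 532 probes, and without null-labelled array 3 it passed 0, 2 and 493. Fold change alone passed 3 members (Lcn2, Serpina3n and Edn2), 9 pathway genes in place of 1, and 699 probes in place of 202. With normexp the second Aqp4 probe, A_52_P625527, reached an adjusted p of 0.049 by limma at a log2 fold change of -0.35, below 1.5-fold. Leaving out 1 array gave 117 to 188 called probes, with 131, 129 and 117 without wild-type arrays 2, 3 and 4, and leaving out the pair of low-signal arrays (null-labelled 2 and wild-type 3) gave 128. Without 1 array the number of member probes whose groups did not overlap was 2 to 5. The 5 were found without wild-type array 1, when A_52_P52303 of Gfap, Serpina3n and Edn2 joined Aqp4, higher on the arrays labelled Mrp4-null, as were 4.94% of all probes. Y-linked probes were then well above background on every wild-type array left and on no null-labelled array. Sex thus cannot be told apart from the label there.

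Same-numbered samples did not deviate together (correlations of their deviations -0.29, -0.69, 0.03 and 0.41), so the numbers were not taken as pairs. With the replicate number as a block 71 probes and 0 members were called. Of the 45 correlations between members, 0 passed in the main setting, 19 with genotypes centred (1 by rank), 1 after the 75th percentile shift and 7 without the low-signal pair.

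Of 368 alternatives for single probes 351 kept direction and call. With 1 array left out, the log2 fold change changed sign in 5 probes: it ranged from -0.12 to 1.54 and from -0.27 to 1.54 for the probes of Lcn2, from -0.051 to 0.085 for Kcnj10, and from -0.15 to 0.016 and from -0.37 to 0.045 for Glul A_66_P134479 (0.014 in the LPE test without null-labelled array 3) and A_52_P143866. The lowest values of Lcn2 and Kcnj10 were those without null-labelled array 3. At a limit of 4-fold in place of 2-fold, 3 members and 5 reactive glia genes stood out on null-labelled array 3, in place of 5 and 10. With normexp 4 members, all but Fgf2 of the 5, and 9 reactive glia genes were 2-fold above. The cause of these shifts was not tested. The array number and the signal over background limit what the dim probes of Fgf2 and Serpina3n can show.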

Other observations

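Outside the lists, other genes high on null-labelled array 3 were read from the 16093 measured genes, chosen after their values were seen. After Lcn2 and Serpina3n, the genes farthest above the other 7 arrays were Acp5, an acid phosphatase of macrophages and osteoclasts, at 8.77 against 4.36 to 5.01 on the log2 scale, and Ccl2, a chemokine that attracts monocytes, at 8.55 against 3.16 to 5.10. Cfb, a factor of the alternative complement pathway, was at 7.67 against 2.71 to 4.38. H2-Eb1, a class II antigen presentation gene, was at 10.16 against 6.06 to 7.18, and the interferon-stimulated Oas1a at 9.77 against 6.53 to 6.83. These are values of 1 sample, with no replicate check.

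S100b, a calcium-binding protein of astrocytes and Muller glia, was at 10.07, 10.23, 9.90 and 10.12 on null-labelled arrays 1 to 4 and at 10.55, 10.40, 10.52 and 10.69 on wild-type arrays 1 to 4. Its groups did not overlap, as in 2.36% of all probes in that direction, and it did not pass the test either (log2 difference -0.46, limma, adjusted p = 0.139). It was noticed after its values were seen, and the median log2 differences of the astrocyte and Muller glia lists were 0.01 and -0.00.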
